A study of Mus musculus with 12 samples.

Results

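The integrins and the adaptor proteins of focal adhesions were followed as a set of 42 mouse genes, among 35727 genes in the deposited bulk RNAseq table. Members were chosen by symbol: 24 integrin subunit genes (16 alpha and 8 beta) and 18 genes for talins, kindlins, the ILK, parvin and PINCH complex, focal adhesion kinases, vinculin, paxillin, zyxin and tensins. All 42 were present in the table. The cells were THY1-selected fibroblasts from pooled hearts of neonatal mice, plated on collagen and, per the labels, grown in EGM2 medium. Per the paper, a depletion of PECAM1-positive cells was added to the isolation for the characterization of the reprogrammed cells. Its methods word the step as optional, and it is not stated for these libraries in particular. *Sox17*-*Erg* samples had been infected with retroviruses that carry the endothelial transcription factors *Sox17* and *Erg* in the pMX backbone, and control samples with the pMX retrovirus alone. The 12 libraries comprise 2 for each of 6 groups, both viruses being sampled on Day 3, on Day 7 and after 4 weeks. The mice are described as wild-type C57BL/6J or as a line with a *Tcf21*-driven inducible Cre and a tdTomato reporter, and which was used for these libraries is not given in the sources used here. Infected cells were not described as purified, so every value is a mean over infected and uninfected cells.

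Integrins are heterodimers of an alpha and a beta subunit that span the plasma membrane and bind extracellular matrix or ligands on other cells. Talins and kindlins bind the beta subunit tails and switch integrins on, and the complex of ILK, parvin and PINCH, together with vinculin, paxillin, focal adhesion kinase and tensins, couples them to actin and to signaling. In the heart, fibroblasts hold collagen, fibronectin and laminin through different alpha subunits, and endothelial cells use an overlapping set on their basement membrane and in the formation of vessels.

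Library totals ran from 19011635 to 41240449 counts. Levels below are CPM, counts scaled to a common library size with TMM factors, each given for the 2 libraries of a group. *Sox17* was at most 0.416 CPM in the 6 control libraries and 432 to 1040 CPM in the 6 *Sox17*-*Erg* libraries. *Erg* was 0.0728 to 2.27 CPM in controls and 17.1 to 65.2 CPM with *Sox17*-*Erg*. The second control library at Day 3 and at Day 7 held 2.27 and 1.37 CPM of *Erg* against 0.0728 and 0.0768 CPM in the first. Summed levels of 10 endothelial markers were also higher in those 2 libraries (61.4 and 56.4 CPM against 29.1 and 21.2 CPM). Against control, 4, 5 and 7 of 9 tested endothelial markers were higher with *Sox17*-*Erg* at Day 3, Day 7 and 4 weeks, and none was lower. Fibroblast markers summed to 12800 to 42000 CPM over 10 genes, a sum in which collagen genes such as *Col1a1* weigh most. Of the 10, 0, 1 and 1 were higher at the 3 time points, and 1, 3 and 4 were lower: *Tcf21* at Day 3, *Pdgfra*, *Dcn* and *Lum* at Day 7, and all 4 at 4 weeks. At 4 weeks *Pdgfra* was 1630 ± 33.7 CPM (SD, n = 2) in control and 333 ± 3.72 CPM in *Sox17*-*Erg*, *Tcf21* 452 ± 128 and 103 ± 22.5, *Dcn* 2600 ± 357 and 263 ± 54.4, and *Lum* 763 ± 133 and 73 ± 11.5. Of the 8 smooth muscle and myofibroblast markers 1, 4 and 3 were higher and 0, 1 and 1 lower, of the 8 cardiomyocyte markers 2, 2 and 5 were lower, and of 5 tested Schwann cell markers 1, 1 and 2 were lower. The labels do not say whether the libraries of a group came from separate cultures, so p-values measure the spread between these libraries, which may be technical. Fewer cells of a type and less RNA per cell cannot be told apart in bulk samples, and the part of these cell types in the results below was not tested.

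Of the 42 members, 38 had enough counts to be tested, and 37 of these were above the filter level of 0.4 CPM in every library. *Itgal* was tested while below it in some. The other 4, *Itgae*, *Itgax*, *Itgb6* and *Itgb7*, had at most 11 counts in any library. A gene was called at an adjusted p under 0.05 in edgeR's quasi-likelihood test, with Benjamini-Hochberg adjustment over all 15506 genes tested. At Day 3, 5 members were higher and 7 lower with *Sox17*-*Erg*, where 12.3% of all tested genes were called (7.19% higher and 5.13% lower). At Day 7, 11 were higher and 5 lower, with 17.4% of all genes called (9.48% higher and 7.93% lower). At 4 weeks, 11 were again higher and 5 lower, with 22.9% of all genes called (11.9% higher and 11.0% lower). The members' shares were 31.6%, 42.1% and 42.1%. The median log2 fold change of the members was 0.01, 0.11 and 0.10, beside 0.01, 0.01 and -0.01 over all genes. Blocking on the replicate number within each time point gave 7 members higher and 9 lower for Day 3 (of all genes 12.7% and 10.4%, together 23.2%), 12 and 10 for Day 7 (13.8% and 13.3%, together 27.1%), and 13 and 9 for 4 weeks (15.5% in each direction, together 31%). The pairing behind this block was read from the same data. Leaving out 1 library lowered many of the counts without the block and raised some. At 4 weeks more members were called in each direction without either *Sox17*-*Erg* library of Day 7. At Day 3 fewer members were called in each direction without any of the Day 3 libraries, and so were fewer of all genes. The same held for Day 7 without the first *Sox17*-*Erg* library of that day, its second control or the first Day 3 control. For 4 weeks it held without either *Sox17*-*Erg* library of that time. Without the first control of 4 weeks fewer members were lower, and fewer of all genes were called in each direction.

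Across the 3 time points, 22 members were called at least once, where 31% of all tested genes were. *Itga1*, *Itga11* and *Itgb8* were higher at all 3 (3.59% of all genes were), and *Lims2*, *Ptk2b* and *Tns3* were lower at all 3 (2.27% of all genes were). Another 11 members were higher at 1 or 2 time points, 5 were lower at 1 or 2, none was called in both directions, and 16 were called at none. Values of the 2 groups did not overlap at any time point for 9 members that were higher (14.6% of all genes) and 8 that were lower (13.6% of all genes). No p is given for these, since choosing genes without overlap fixes it. In the plot of fold changes by role, 8 integrin subunits were higher and 2 lower of 20 tested at 4 weeks, and 3 adaptors and kinases were higher and 3 lower of 18, where 11.9% of all genes were higher and 11.0% lower.

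**Figure D1:**
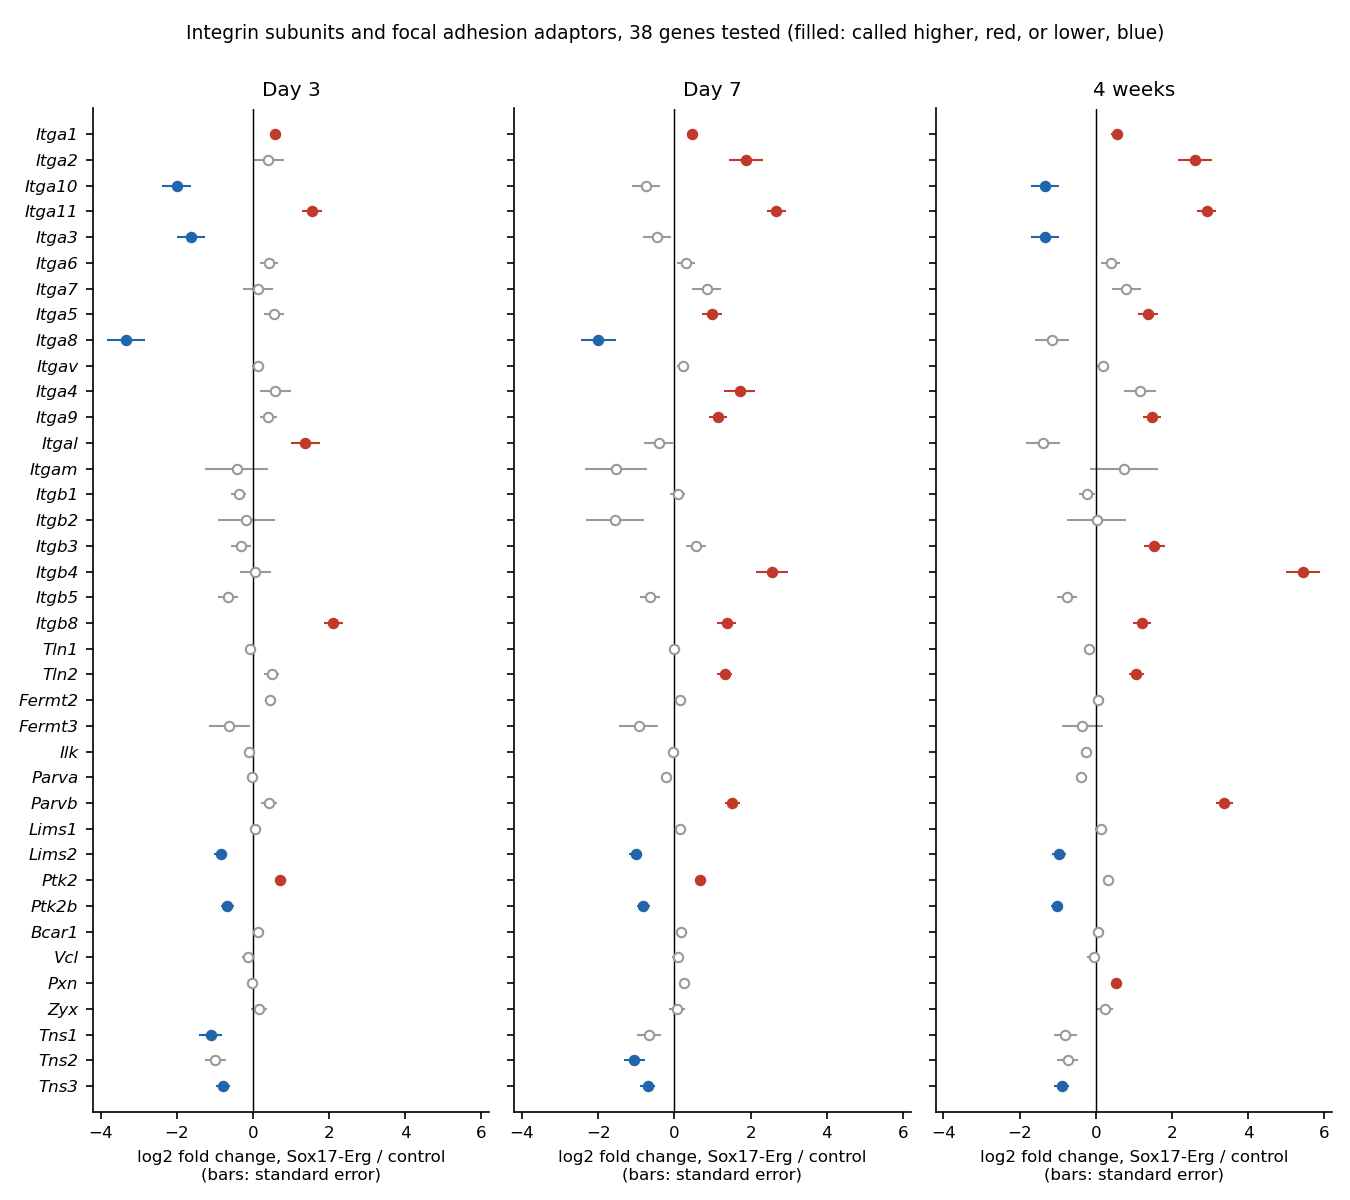
Log2 fold change of *Sox17*-*Erg* against control (x axis) for the 38 tested members (y axis, ordered by role) at Day 3, Day 7 and 4 weeks. Points are fitted values, bars are standard errors, and filled points are called higher (red) or lower (blue) at an adjusted p under 0.05; *Itgb4* reaches 5.43 at 4 weeks and *Itga8* is at -3.33 at Day 3.

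The 250 bases before the start site of 3 members with a call that stood under every alternative tried are shown, since the introduced factors bind DNA. Sequences are from RefSeq on GRCm38.p6, in which 29 of the 42 members had an entry, and are written 5′ to 3′ on the strand of the gene. Capitals mark the ETS core GGAA and the SOX core ATTGT, searched on both strands (TTCC and ACAAT), with no overlap between the 2 motifs. They lie at chr9:62677605-62677854 (plus strand) for *Itga11*, chr15:84231793-84232042 (plus) for *Parvb* and chr2:12301945-12302194 (minus) for *Itga8*. The last 29 bases of the *Itga11* window lie inside the gene span that GENCODE M21 gives, and the windows of the other 2 lie outside it.
Itga11: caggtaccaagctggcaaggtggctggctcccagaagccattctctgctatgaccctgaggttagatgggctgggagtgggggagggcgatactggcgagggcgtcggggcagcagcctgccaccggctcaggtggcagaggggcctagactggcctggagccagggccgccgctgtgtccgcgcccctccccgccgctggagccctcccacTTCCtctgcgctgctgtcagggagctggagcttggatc
Parvb: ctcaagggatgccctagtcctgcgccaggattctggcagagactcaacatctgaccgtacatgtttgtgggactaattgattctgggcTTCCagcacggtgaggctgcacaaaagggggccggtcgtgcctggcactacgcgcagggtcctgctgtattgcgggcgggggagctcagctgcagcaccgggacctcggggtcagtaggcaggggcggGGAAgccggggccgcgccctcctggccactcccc
Itga8: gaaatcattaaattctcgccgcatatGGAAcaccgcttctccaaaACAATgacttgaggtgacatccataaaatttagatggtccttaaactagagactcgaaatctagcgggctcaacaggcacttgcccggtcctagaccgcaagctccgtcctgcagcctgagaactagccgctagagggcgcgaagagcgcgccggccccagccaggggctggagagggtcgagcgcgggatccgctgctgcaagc
The ETS core was found 1, 2 and 1 times in these windows, in the order shown, and the SOX core once, in that of *Itga8*, which was lower with *Sox17*-*Erg*. Over all 27025 promoters of the same length, 93.4% held the ETS core and 28.3% the SOX core. Of the 29 member promoters, 27 and 6 did, or 93.1% and 20.7%. Matches of such short letters are a description and not binding sites.

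The collagen receptors were called in both directions. *Itga1*, *Itga2*, *Itga10* and *Itga11* encode the 4 alpha subunits that pair with beta1 and bind collagens. *Itga11* (ENSMUSG00000032243, chr9:62677826-62783982 on GRCm38), known from fibroblasts and their attachment to fibrillar collagen, was 10.9 and 11.1 CPM at Day 3, 7.95 and 7.15 at Day 7, then 9.52 and 8.91 at 4 weeks in control samples. *Sox17*-*Erg* samples had 22.9 and 41.3, 51.8 and 45.3, and 77.4 and 60.9 CPM. The groups were separate at each time point. Fitted log2 fold changes were 1.55 ± 0.25 (SE, adjusted p = 0.0067), 2.68 ± 0.26 (adjusted p = 0.00029) and 2.91 ± 0.25 (adjusted p = 9.9e-05), or 2.93-, 6.43- and 7.50-fold. Without either Day 3 control library the Day 3 call was lost (adjusted p up to 0.061). The effect at 4 weeks was 1.36 ± 0.34 above that at Day 3, which did not pass (adjusted p = 0.073, and 0.029 with the block within time points).

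*Itga1*, a receptor for basement membrane and fibrillar collagens, rose over time in both groups. Control libraries had 46.0 and 48.5 CPM at Day 3, 96.4 and 108 at Day 7, then 139 and 115 at 4 weeks, and *Sox17*-*Erg* libraries 64.4 and 76.7, 150 and 130, and 194 and 179. Both *Sox17*-*Erg* libraries were above both controls each time. The differences were small, with log2 fold changes of 0.58 ± 0.14, 0.46 ± 0.14 and 0.55 ± 0.14 (adjusted p = 0.029, 0.048 and 0.019). Each call was lost without 1 library: any of the 4 Day 3 libraries for Day 3 (adjusted p up to 0.15), any library but the first control at 4 weeks for Day 7 (up to 0.29), and, for 4 weeks, the second control or either *Sox17*-*Erg* library of that time (up to 0.11). The Day 7 call was also lost with a replicate block spanning all libraries (0.058), with DESeq2 size factors (0.052) and in a fit of the 4 Day 7 libraries alone (0.15).

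*Itga2*, the alpha subunit of a collagen receptor best known from platelets and epithelia, was low throughout. It fell in control from 6 and 4.44 CPM at Day 3 to 1.77 and 1.21 at Day 7, then 0.752 and 1.3 at 4 weeks. In *Sox17*-*Erg* it held at 5.77 and 8.01, 6.67 and 4.26, and 8.21 and 4.04 CPM. Values overlapped at Day 3 and not after it. The fall in control from Day 3 to 4 weeks was called (-2.37, adjusted p = 0.0060), and the call was lost without the first control library of 4 weeks (0.056). Fitted differences (log2) were 0.40 ± 0.41 at Day 3 (adjusted p = 0.56), 1.88 ± 0.44 at Day 7 (adjusted p = 0.019, lost without the second control or the first *Sox17*-*Erg* Day 7 library, up to 0.14, and with the 4 Day 7 libraries alone, 0.051) and 2.6 ± 0.45 at 4 weeks (adjusted p = 0.0035; 1.99 without the first *Sox17*-*Erg* library). The 6 platelet markers summed to 9.86 and 8.51 CPM in control at Day 3 and 0.852 and 2.68 at 4 weeks, and to 4.66 and 6.98 and then 0.496 and 2.04 CPM in *Sox17*-*Erg*. They thus fell alongside *Itga2* in control, and also in *Sox17*-*Erg*, and their part was not tested.

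*Itga10*, a collagen receptor subunit known from cartilage, was lower. Control libraries had 35.3 and 16.9 CPM at Day 3, 33.0 and 18.4 at Day 7, then 11.8 and 16.7 at 4 weeks, against 6.48 and 6.55, 14.1 and 16.6, and 5.20 and 6.04 CPM with *Sox17*-*Erg*. The log2 fold change was -2 ± 0.38 (adjusted p = 0.013), -0.75 ± 0.36 (adjusted p = 0.19) and -1.34 ± 0.37 (adjusted p = 0.030). With 1 library left out the Day 3 value lay between -2.47 and -1.37. Leaving out the first control or either *Sox17*-*Erg* library ended the Day 3 call (up to 0.12), and leaving out the second control or either *Sox17*-*Erg* library ended that at 4 weeks (up to 0.16). Its value is uncertain in part, since 33.53% of its exon bases overlap the same-strand gene *Gm42957*, which held 0.215 to 3.24 CPM.

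Of the laminin receptor subunits *Itga3*, *Itga6* and *Itga7*, *Itga3* alone was called, and it was lower. Control samples had 197 and 106 CPM at Day 3, 187 and 154 at Day 7, then 350 and 251 at 4 weeks, and *Sox17*-*Erg* samples 58.3 and 40.2, 89.0 and 159, and 138 and 101. Day 7 values overlapped and those of the other time points did not. The log2 fold changes were -1.62 ± 0.37 (adjusted p = 0.026), -0.46 ± 0.36 (adjusted p = 0.42) and -1.33 ± 0.37 (adjusted p = 0.029). Both calls were lost without the first control or either *Sox17*-*Erg* library of their own time point (up to 0.15). *Itga3* is also found in epithelia and mesothelium, and mesothelial and epicardial markers were lower as well: 1, 4 and 7 of 8 passed the test at Day 3, Day 7 and 4 weeks. Their summed level was 326 to 1470 CPM in control and 155 to 335 CPM in *Sox17*-*Erg* libraries, with no marker at 0, and their part in the lower level of *Itga3* was not tested. The difference of *Sox17*-*Erg* from control at 4 weeks was -2.4 (log2) for *Msln*, the mesothelin gene, and -2.80 for *Upk3b*.

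*Itga6* and *Itga7* followed the culture time. *Itga6*, the laminin receptor subunit of endothelial and epithelial cells, fell from 38.6 and 33.5 to 7.17 and 6.43 CPM in control, and from 53.9 and 42.5 to 9.38 and 8.52 CPM in *Sox17*-*Erg*, between Day 3 and 4 weeks. These falls were -2.4 ± 0.26 and -2.43 ± 0.25 (adjusted p = 0.00054 in each), and the groups did not differ past the threshold at any time (0.42, 0.31 and 0.39, adjusted p from 0.27 to 0.41). *Itga7*, the muscle laminin receptor subunit, rose from 25.4 and 13.6 to 74.5 and 60.6 CPM in control and from 27.5 and 15.5 to 122 and 113 CPM in *Sox17*-*Erg*. The rise in control (1.79, adjusted p = 0.011) was lost without the second control of Day 3 or the first of 4 weeks (up to 0.080). Of the 8 smooth muscle and myofibroblast markers over the same time, 1 rose in both groups, *Myh11* (by 2.14 in control and 5.26 in *Sox17*-*Erg* on the log2 scale), *Smtn* fell in both and *Actg2* in control. The median change of the 8 was -0.83 in control and -0.12 in *Sox17*-*Erg*, and their part in the rise of *Itga7* was not tested. The differences of *Itga7* between groups were 0.85 ± 0.38 at Day 7 and 0.80 ± 0.38 at 4 weeks (adjusted p = 0.16 in each). With the replicate block within time points both were called (0.90 ± 0.13, adjusted p = 0.0036, and 0.80 ± 0.13, adjusted p = 0.0039).

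Among subunits that recognize the RGD motif, *Itga8* and *Itga5* moved in opposite directions while *Itgav* did not pass the test. *Itga8* (ENSMUSG00000026768, chr2:12106632-12301922), whose product binds nephronectin and fibronectin and which is expressed in fibroblasts and smooth muscle, was abundant in control, at 457 and 493, 546 and 644, and 759 and 751 CPM over the 3 time points. *Sox17*-*Erg* libraries had 29.5 and 65.0, 77.9 and 220, and 365 and 314 CPM. All control libraries were above all *Sox17*-*Erg* libraries, and the *Sox17*-*Erg* level rose with time. The log2 fold change was -3.33 ± 0.49 at Day 3 (adjusted p = 0.0052), -2 ± 0.46 at Day 7 (adjusted p = 0.019) and -1.15 ± 0.45 at 4 weeks (adjusted p = 0.099). Without the second *Sox17*-*Erg* library of the time point it was -4.01 at Day 3 and -2.97 at Day 7. Without the second control or the first *Sox17*-*Erg* Day 7 library the Day 7 call was lost (up to 0.082), as it was with the 4 Day 7 libraries alone (0.082). Under the block within time points the 4-week difference was called (-1.16 ± 0.33, adjusted p = 0.036). The rise within *Sox17*-*Erg* from Day 3 to 4 weeks was 2.84 ± 0.48 (adjusted p = 0.0034; 3.53 without the second Day 3 library), and within control it was 0.67 ± 0.45 (adjusted p = 0.30). The difference between those courses was 2.17 ± 0.64 (adjusted p = 0.12, and 0.038 with the block within time points). The fibroblast markers *Tcf21*, *Pdgfra*, *Dcn* and *Lum* were called lower at the time points given above, while *Postn*, the periostin gene, of the same list was called higher at Day 7 and 4 weeks (2.69 and 4.74 on the log2 scale). Of the 8 smooth muscle and myofibroblast markers, *Myh11*, *Cnn1* and *Cald1* were called higher at 4 weeks and *Des* lower. The part of either list in the level of *Itga8* was not tested.

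*Itga5*, the alpha subunit of the fibronectin receptor, fell in both groups. Control went from 441 and 483 CPM at Day 3 to 134 and 101 at Day 7, then 53.8 and 88.4 at 4 weeks. *Sox17*-*Erg* went from 592 and 762 to 270 and 193 and to 178 and 192 CPM. No *Sox17*-*Erg* value was below a control value of the same time. The difference was 0.55 ± 0.26 at Day 3 (adjusted p = 0.19, and 0.047 with the block within time points), 0.98 ± 0.26 at Day 7 (adjusted p = 0.033) and 1.38 ± 0.26 at 4 weeks (adjusted p = 0.0057). The Day 7 call was lost without either Day 3 or Day 7 control library, the first *Sox17*-*Erg* library of Day 7 or either of 4 weeks (up to 0.23), and with the 4 Day 7 libraries alone (0.085). *Itgav*, which pairs with beta1, beta3, beta5, beta6 and beta8, ranged from 269 to 422 CPM, with log2 fold changes of 0.13, 0.23 and 0.19 (adjusted p from 0.34 to 0.62).

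*Itga4* and *Itga9*, related subunits that bind VCAM1 and, for alpha9, tenascin-C, were higher with *Sox17*-*Erg*. For *Itga9*, control libraries had 33.1 and 38.7 CPM at Day 3, 23.9 and 27.4 at Day 7, then 23.7 and 38 at 4 weeks, and *Sox17*-*Erg* libraries 42.9 and 51.8, 59.3 and 53.8, and 97.4 and 74.4. The difference was 0.40 ± 0.22 (adjusted p = 0.27), 1.14 ± 0.23 (adjusted p = 0.0097, lost without the first control or first *Sox17*-*Erg* Day 7 library, up to 0.066) and 1.48 ± 0.23 (adjusted p = 0.0019). *Itga4* fell with time in both groups, by 1.92 in control and 1.34 in *Sox17*-*Erg*, calls that were lost without the first control of Day 3 or second of 4 weeks (up to 0.066) and without any *Sox17*-*Erg* library of those times (up to 0.19). Its control values were 38.2 and 26.2, 18.1 and 10.4, and 9.60 and 7.40 CPM, and its *Sox17*-*Erg* values 57.5 and 39.4, 63.8 and 29.0, and 21.4 and 16.7 CPM. For *Itga4* the log2 fold change was 0.59 ± 0.40 at Day 3 (adjusted p = 0.35), 1.71 ± 0.41 at Day 7 (adjusted p = 0.021) and 1.16 ± 0.41 at 4 weeks (adjusted p = 0.071). Leaving out 1 library put the Day 7 value of *Itga4* between 1.03 and 2.14. The block within time points brought its adjusted p to 0.011 at Day 3 and 0.00056 at 4 weeks. Without the second control or the first *Sox17*-*Erg* Day 7 library, its Day 7 call was lost (up to 0.17), as it was with the 4 Day 7 libraries alone (0.099). The plot of alpha subunit levels by library places these 9 genes side by side.

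**Figure D2:**
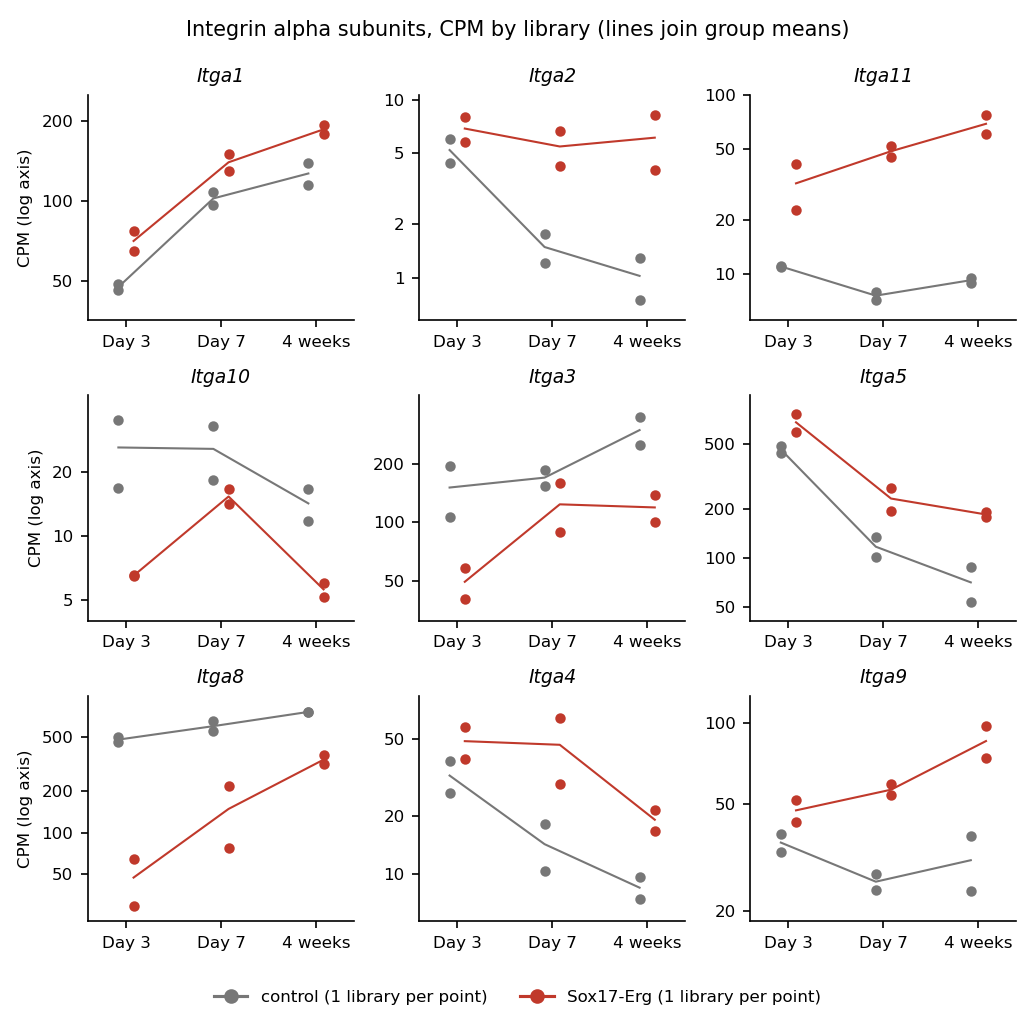
CPM on a log axis (y) at Day 3, Day 7 and 4 weeks (x) for 9 integrin alpha subunits that were called at a time point, with 1 point per library (gray, control; red, *Sox17*-*Erg*) and lines joining group means. *Itga11* separates from control at every time point, and the *Sox17*-*Erg* level of *Itga8* climbs from 29.5 and 65.0 CPM toward control values of 759 and 751 CPM.

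Leukocyte integrin subunits were at low levels. *Itgal*, the alpha subunit of LFA-1, was 0.655 and 0.786 CPM in control and 2.28 and 1.47 CPM in *Sox17*-*Erg* at Day 3, 1.04 and 1.29 against 0.91 and 0.835 CPM at Day 7, and 0.401 and 0.569 against 0.177 and 0.185 CPM at 4 weeks. Its Day 3 difference was 1.37 ± 0.38 (adjusted p = 0.048), and the call was lost without any 1 of the 12 libraries (up to 0.34) with the block within time points (adjusted p = 0.061) and with the 4 Day 3 libraries alone (0.087), DESeq2 (0.077) or no filter on low counts (0.11). *Itgam*, the alpha subunit of the myeloid receptor Mac-1, ranged from 0.526 to 22.9 CPM, and *Itgb2*, the beta subunit shared by leukocyte integrins, from 0.849 to 16.9 CPM. Neither was called at any time. Their Day 7 differences were -1.53 ± 0.82 (adjusted p = 0.23) and -1.57 ± 0.76 (adjusted p = 0.19), and the block within time points called both (adjusted p = 0.0043 and 0.0029). *Itgam* shares 68.67% of its exon bases with the same-strand gene *Gm49368*, which had at most 0.218 CPM.

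The summed level of 10 macrophage and leukocyte markers moved with *Itgam* and *Itgb2*. It was 904 and 1320 CPM in control and 276 and 451 CPM in *Sox17*-*Erg* at Day 7, and at 4 weeks 48.2 and 432 CPM in control and 67.0 and 337 CPM in *Sox17*-*Erg*. The first library of either 4-week group was lower in both the marker sum and *Itgb2*, the latter at 1.33 and 0.849 CPM against 5 and 5.48 CPM in the second. None of the 10 markers was called at any time point, and none was at 0 in a group. T and B cell markers summed to at most 1.38 CPM over 8 genes, and 1 of 2 tested was higher at 4 weeks. Their part in the levels of *Itgal*, *Itgam* and *Itgb2* was not tested.

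The beta subunits that passed the test were all higher, and the most abundant did not pass. *Itgb4* (ENSMUSG00000020758, chr11:115974709-116008412), which pairs with alpha6 alone, binds laminin and has an unusually long cytoplasmic tail, was 2.58 and 2.13 CPM in control and 3.09 and 1.85 CPM in *Sox17*-*Erg* at Day 3. By Day 7 control had 1.5 and 1.21 CPM and *Sox17*-*Erg* 10.2 and 5.71 CPM, and by 4 weeks 1.08 and 0.813 CPM against 53.9 and 28.9 CPM. Values overlapped at Day 3 and were far apart after it. Fitted log2 fold changes were 0.06 ± 0.41 (adjusted p = 0.94), 2.56 ± 0.41 (adjusted p = 0.0037) and 5.43 ± 0.45 (adjusted p = 7.2e-05, 43.0-fold). The change in effect from Day 3 to 4 weeks was itself 5.37 ± 0.59 (adjusted p = 0.0040), and no alternative ended these calls. *Itga6*, the gene of its partner, did not rise with it. In *Sox17*-*Erg* that gene went from 53.9 and 42.5 CPM at Day 3 to 9.38 and 8.52 CPM at 4 weeks, and it was called against control at no time point. *Itgb4* is also known from Schwann cells and epithelia. Schwann cell markers summed to 11.2 and 13.0 CPM in *Sox17*-*Erg* and 74.5 and 65.8 CPM in control at 4 weeks, and mesothelial markers were lower as given above. Endothelial markers summed to 774 and 610 CPM in *Sox17*-*Erg* and 20.9 and 23.8 CPM in control at 4 weeks, and their part was not tested.

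*Itgb8* (ENSMUSG00000025321, chr12:119158022-119238802), which pairs with alphav and takes part in the activation of latent TGF-beta, was higher from Day 3 on. Control libraries had 11.4 and 11.0 CPM, then 23.8 and 22.5, then 31 and 29.2. *Sox17*-*Erg* libraries had 52.3 and 44.5, 43.8 and 76.8, and 80.3 and 58.8 CPM. The groups never overlapped, and control rose with time (1.42, adjusted p = 0.0044). The log2 fold change was 2.11 ± 0.25 (adjusted p = 0.0019), 1.38 ± 0.25 (adjusted p = 0.0058, lost with the 4 Day 7 libraries alone, at 0.058) and 1.21 ± 0.24 (adjusted p = 0.0072, lost without the first *Sox17*-*Erg* library of 4 weeks, at 0.064). The effect at 4 weeks minus that at Day 3 was -0.90 ± 0.34 and did not pass (adjusted p = 0.22).

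*Itgb3*, the partner of alphav in the vitronectin receptor, fell in control from 77.5 and 74.1 CPM at Day 3 to 34.2 and 20.7 at Day 7, then 10.8 and 17.2 at 4 weeks. In *Sox17*-*Erg* it was 52.4 and 70.2, 44.0 and 37.6, and 41.7 and 39.2 CPM. The order of the groups turned over between Day 3 and Day 7. Its log2 fold change went from -0.31 ± 0.26 (adjusted p = 0.48) and 0.57 ± 0.27 (adjusted p = 0.18) to 1.54 ± 0.27 at 4 weeks (adjusted p = 0.0041). The interaction of 1.84 ± 0.38 was called (adjusted p = 0.036) but was lost without any of the 4 Day 3 libraries, the first control of 4 weeks or either *Sox17*-*Erg* library of 4 weeks (up to 0.13). *Itgb3* is also a platelet gene. Platelet markers fell in sum from 9.86 and 8.51 CPM at Day 3 to 0.852 and 2.68 CPM at 4 weeks in control, as *Itgb3* did, and from 4.66 and 6.98 to 0.496 and 2.04 CPM in *Sox17*-*Erg*, and their part was not tested.

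*Itgb1*, the common partner of most alpha subunits, and *Itgb5*, a vitronectin receptor subunit, made up nearly all beta subunit transcripts. *Itgb1* ranged from 2590 to 3730 CPM over the 12 libraries, with log2 fold changes of -0.37 ± 0.20, 0.09 ± 0.20 and -0.23 ± 0.20 (adjusted p = 0.24, 0.79 and 0.46). *Itgb5* rose in both groups, by 1.3 and 1.19 (calls that were lost without the first Day 3 library of the group, at 0.066 and 0.055), from 908 and 1090 to 2450 and 2470 CPM in control and from 487 and 788 to 1490 and 1410 CPM in *Sox17*-*Erg*. Each *Sox17*-*Erg* library lay below both controls of its time, by -0.65 ± 0.26, -0.64 ± 0.26 and -0.76 ± 0.26, which did not pass (adjusted p = 0.13, 0.12 and 0.061). The block within time points called all 3 (adjusted p = 0.026, 0.024 and 0.012).

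**Figure D3:**
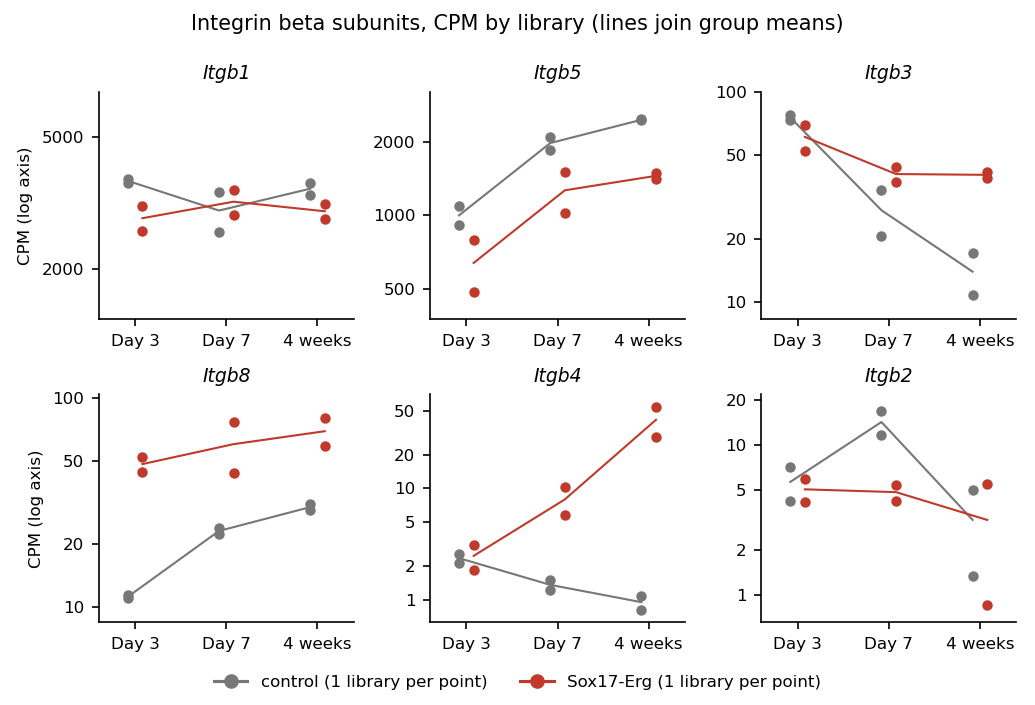
CPM on a log axis (y) at Day 3, Day 7 and 4 weeks (x) for 6 integrin beta subunits, with 1 point per library (gray, control; red, *Sox17*-*Erg*) and lines joining group means. *Itgb1* stays between 2590 and 3730 CPM in all 12 libraries, while *Itgb4* in *Sox17*-*Erg* goes from 3.09 and 1.85 CPM to 53.9 and 28.9 CPM.

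Levels of different subunits can be compared only per length. CPM was therefore divided by the exon length of each gene, and each subunit was expressed as a share of the sum over its class in each library. At 4 weeks *Itgb1* was 55.0% ± 1.70 (SD, n = 2) of beta subunit transcripts in control and 63.0% ± 0.707 in *Sox17*-*Erg*, and *Itgb5* was 44.6% ± 1.56 and 35.2% ± 0.919. All other beta subunits together held the small remainder, so the large fold changes of *Itgb4* and *Itgb8* were changes of scarce transcripts: at 4 weeks *Itgb4* was 0.502% ± 0.185 and *Itgb8* 0.539% ± 0.0827 of the beta class in *Sox17*-*Erg*. The alpha class was more mixed. *Itga8* was 46.0% ± 0.636 of alpha subunit transcripts in control and 24.2% ± 0.778 in *Sox17*-*Erg*, *Itga5* was 6.50% ± 2.37 and 19.9% ± 2.47, and *Itga11* was 0.806% ± 0.0205 and 7.08% ± 0.679. Summed over the class, alpha subunits were 163 to 249 CPM per kb and beta subunits 790 to 1590 CPM per kb in the 12 libraries. These shares are descriptions, and no test was run on them.

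**Figure D4:**
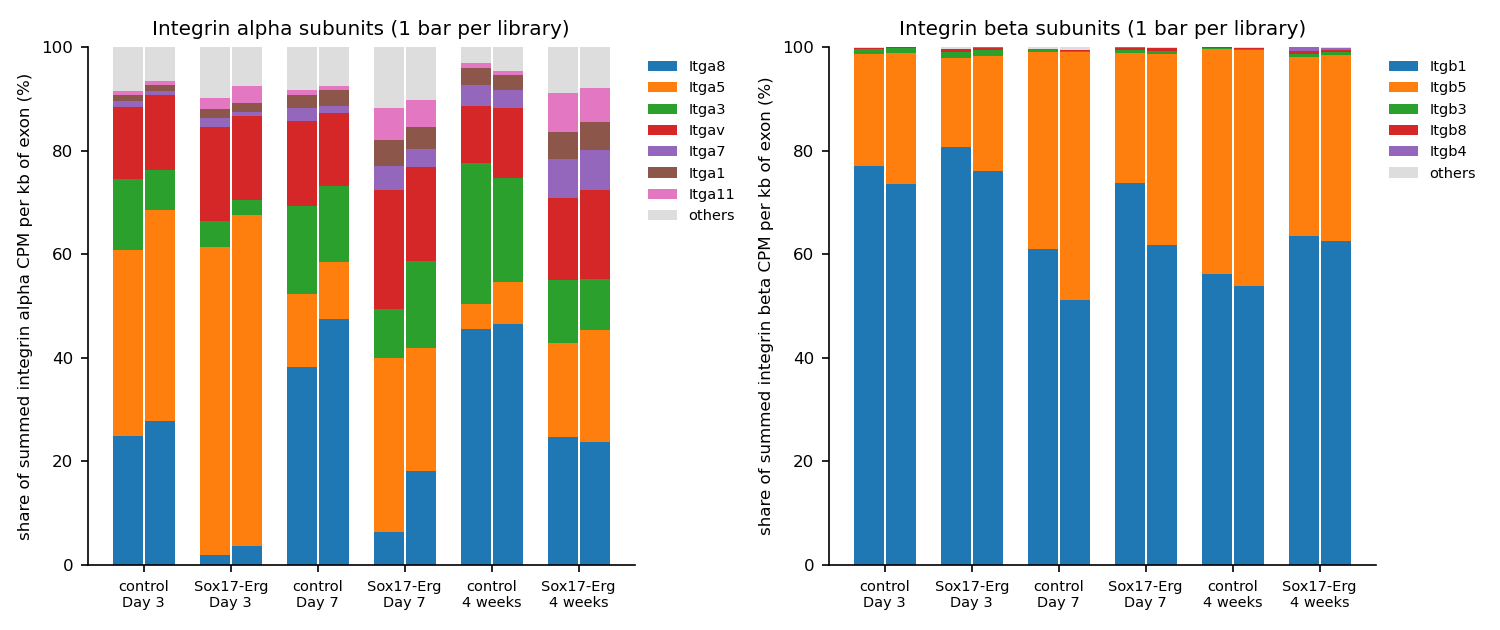
Share (%, y axis) of each subunit in the summed CPM per kb of exon of integrin alpha (left) and beta (right) subunits, with 1 stacked bar per library and groups on the x axis. *Itga8* is 46.0% of the alpha class in control and 24.2% in *Sox17*-*Erg* at 4 weeks (means of 2 libraries), and *Itgb1* and *Itgb5* fill nearly all of the beta class everywhere.

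Among talins and kindlins, which bind the integrin beta tails directly, *Tln2* was called. *Tln2* was 34.2 and 31.2 CPM in control at Day 3, 11.3 and 12.5 at Day 7, then 9.77 and 10.4 at 4 weeks, and 44.9 and 47.1, 36.8 and 22.5, and 21.7 and 20.4 CPM in *Sox17*-*Erg*. It fell in both groups, and the groups, which did not overlap, differed by 0.49 ± 0.19 (adjusted p = 0.13), 1.32 ± 0.20 (adjusted p = 0.0027, lost with the 4 Day 7 libraries alone, at 0.054) and 1.06 ± 0.20 (adjusted p = 0.0053). *Tln1*, the main talin, was 965 to 1220 CPM in all libraries, with log2 fold changes of -0.08, -0.01 and -0.18 (adjusted p from 0.37 to 0.97). Every control library was above every *Sox17*-*Erg* library of its time for *Tln1*, by amounts this test did not call and that at Day 7 were under 3 significant digits for the closest pair. *Fermt2* (kindlin-2) ranged from 161 to 292 CPM, and its difference was 0.45 ± 0.13 at Day 3 (adjusted p = 0.054, and 0.043 with the block within time points). *Fermt3* (kindlin-3), the kindlin of blood cells, was 1.27 to 10.5 CPM and was not called. At Day 7 its difference was -0.94 ± 0.52 (adjusted p = 0.25, and 0.018 with the block within time points), where the macrophage markers given above were also lower in sum.

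Of the 5 genes of the complex of ILK, parvin and PINCH, *Parvb* was higher and *Lims2* lower. *Parvb* (ENSMUSG00000022438, chr15:84232043-84315688), which encodes beta-parvin, was 27.4 and 33.7 CPM at Day 3, 17.1 and 17.6 at Day 7, then 7.62 and 9.39 at 4 weeks in control. In *Sox17*-*Erg* it was 39.6 and 42, 54.7 and 44.9, and 105 and 70.5 CPM. It fell in control and rose in *Sox17*-*Erg*, and the groups never overlapped. The log2 fold change was 0.42 ± 0.20 (adjusted p = 0.19), 1.52 ± 0.20 (adjusted p = 0.0015) and 3.37 ± 0.22 (adjusted p = 2.2e-05, 10.3-fold). The change in effect between Day 3 and 4 weeks was 2.95 ± 0.29 (adjusted p = 0.0025), and like those at Day 7 and 4 weeks this call held in every alternative. Its paralog *Parva* (alpha-parvin) was 416 to 605 CPM, with differences of -0.03, -0.21 and -0.38 (adjusted p = 0.89, 0.32 and 0.071).

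*Lims2*, the gene for PINCH-2, rose with time in both groups and was lower in *Sox17*-*Erg* throughout. Control had 29.0 and 28.8 CPM at Day 3, 44.8 and 47.7 at Day 7, then 74.0 and 62.0 at 4 weeks, and *Sox17*-*Erg* 14.5 and 17.5, 18.4 and 27.4, and 34.5 and 35.2. No values overlapped. The differences were -0.85 ± 0.18 (adjusted p = 0.021), -1.02 ± 0.18 (adjusted p = 0.0061) and -0.96 ± 0.18 (adjusted p = 0.0052), and the Day 3 call was lost without either control library or the first *Sox17*-*Erg* library of Day 3 (up to 0.17), and the Day 7 call with the 4 Day 7 libraries alone (0.059). Its paralog *Lims1* (PINCH-1) was 89.2 to 166 CPM and differed by 0.06, 0.15 and 0.13 (adjusted p from 0.55 to 0.82). *Ilk*, the integrin-linked pseudokinase at the center of the complex, was 246 to 367 CPM and differed by -0.11, -0.03 and -0.25 (adjusted p from 0.16 to 0.89). Antisense genes overlap 89.69% of the exon bases of *Ilk*. The libraries were stranded, but the strand setting of the counting is not given in the sources used here.

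The kinases were also called in both directions. *Ptk2*, the gene for focal adhesion kinase, was 56.6 and 58.1 CPM at Day 3, 48.6 and 48.5 at Day 7, then 51.7 and 59.3 at 4 weeks in control, and 97.2 and 90.2, 84.6 and 69.6, and 71.6 and 68.2 in *Sox17*-*Erg*. It differed by 0.71 ± 0.12 (adjusted p = 0.0083) and 0.67 ± 0.12 (adjusted p = 0.0056) at the first 2 time points and by 0.33 ± 0.12 (adjusted p = 0.071) at 4 weeks. Its Day 3 call was lost without either control library or the first *Sox17*-*Erg* library of Day 3 (up to 0.10), and its Day 7 call with the 4 Day 7 libraries alone (0.070). *Ptk2b*, which encodes the related kinase Pyk2, was lower at all 3 time points. Control had 63.3 and 52.6, 51.8 and 40.4, and 53.6 and 46.3 CPM, and *Sox17*-*Erg* 38.6 and 33.8, 24.1 and 28.2, and 26.9 and 22.4 CPM. The differences of *Ptk2b* were -0.68 ± 0.17 (adjusted p = 0.034), -0.82 ± 0.17 (adjusted p = 0.012) and -1.02 ± 0.17 (adjusted p = 0.0030). Without any of the 4 Day 3 libraries its Day 3 call was lost (up to 0.18), and without the first control or first *Sox17*-*Erg* Day 7 library its Day 7 call was lost (up to 0.11), as it was with the 4 Day 7 libraries alone (0.064). *Bcar1*, the gene for the adaptor p130Cas, was 103 to 189 CPM and did not differ past the threshold (0.14, 0.18 and 0.07, adjusted p from 0.25 to 0.66).

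The tensins, which bind integrin tails and actin at fibrillar adhesions, were each called lower at 1 or more time points. *Tns3* was 640 and 654 CPM at Day 3, 689 and 927 at Day 7, then 973 and 871 at 4 weeks in control, and 340 and 414, 437 and 560, and 497 and 493 CPM in *Sox17*-*Erg*. Its differences were -0.78 ± 0.19, -0.70 ± 0.19 and -0.90 ± 0.19 (adjusted p = 0.030, 0.033 and 0.0087). Those calls were lost without either control library or the first *Sox17*-*Erg* library of Day 3 for Day 3 (up to 0.20), without either Day 3 control, the second control of Day 7 or the first *Sox17*-*Erg* library of Day 7 for Day 7 (up to 0.23; 0.15 with the 4 Day 7 libraries alone), and without the first library of either group for 4 weeks (up to 0.054). *Tns1* was 3390 and 3810 CPM at Day 3, 2900 and 4850 at Day 7, then 4680 and 4700 at 4 weeks in control, and 1370 and 1960, 1890 and 3030, and 2910 and 2480 CPM in *Sox17*-*Erg*, with overlap at Day 7. *Tns2* was 260 and 304, 334 and 432, and 525 and 469 CPM in control, and 105 and 179, 145 and 224, and 322 and 273 CPM in *Sox17*-*Erg*, with no overlap. *Tns1* was called at Day 3 (-1.11 ± 0.31, adjusted p = 0.048), a call that was lost without any of the 8 libraries of Day 3 and 4 weeks (up to 0.29). *Tns2* was called at Day 7 (-1.05 ± 0.28, adjusted p = 0.032, lost without the first control of Day 3, the second control of Day 7 or the first *Sox17*-*Erg* library of Day 7, up to 0.23, and with the 4 Day 7 libraries alone, 0.084). The remaining differences were -0.66 and -0.80 for *Tns1* at Day 7 and 4 weeks (adjusted p = 0.18 and 0.096), and -0.99 and -0.74 for *Tns2* at Day 3 and 4 weeks (adjusted p = 0.051 and 0.087). With the block within time points these 4 were called (adjusted p = 0.022, 0.0085, 0.0055 and 0.0097). Of the 10 fibroblast markers, *Tcf21*, *Pdgfra*, *Dcn* and *Lum* were called lower at the time points given above. *Postn* of the same list was called higher at Day 7 and 4 weeks. Of the 8 smooth muscle and myofibroblast markers, *Myh11*, *Cnn1* and *Cald1* were higher at 4 weeks and *Des* lower. The part of either list in the levels of the tensins was not tested.

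*Pxn*, the gene for the scaffold paxillin, was 78 and 83.1 CPM at Day 3, 67.4 and 78.4 at Day 7, then 60.2 and 52.7 at 4 weeks in control, and 76.5 and 81.2, 83.3 and 90.7, and 85.4 and 79.2 CPM in *Sox17*-*Erg*. The groups overlapped at Day 3 and not after it, and the difference at 4 weeks was 0.54 ± 0.11 (adjusted p = 0.0091). The call was lost without the second control or the first *Sox17*-*Erg* library of that time (up to 0.063). At Day 3 and Day 7 the difference was -0.03 ± 0.11 and 0.25 ± 0.11 (adjusted p = 0.89 and 0.16). *Vcl* (vinculin) was 733 to 1050 CPM and *Zyx* (zyxin) 231 to 387 CPM, and neither was called at any time, with differences from -0.13 to 0.24. Antisense exons of *Ap3m1* overlap 25.52% of the exon bases of *Vcl*. The plot of adaptors and kinases by library shows the called genes, in which both directions are present at every time point.

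**Figure D5:**
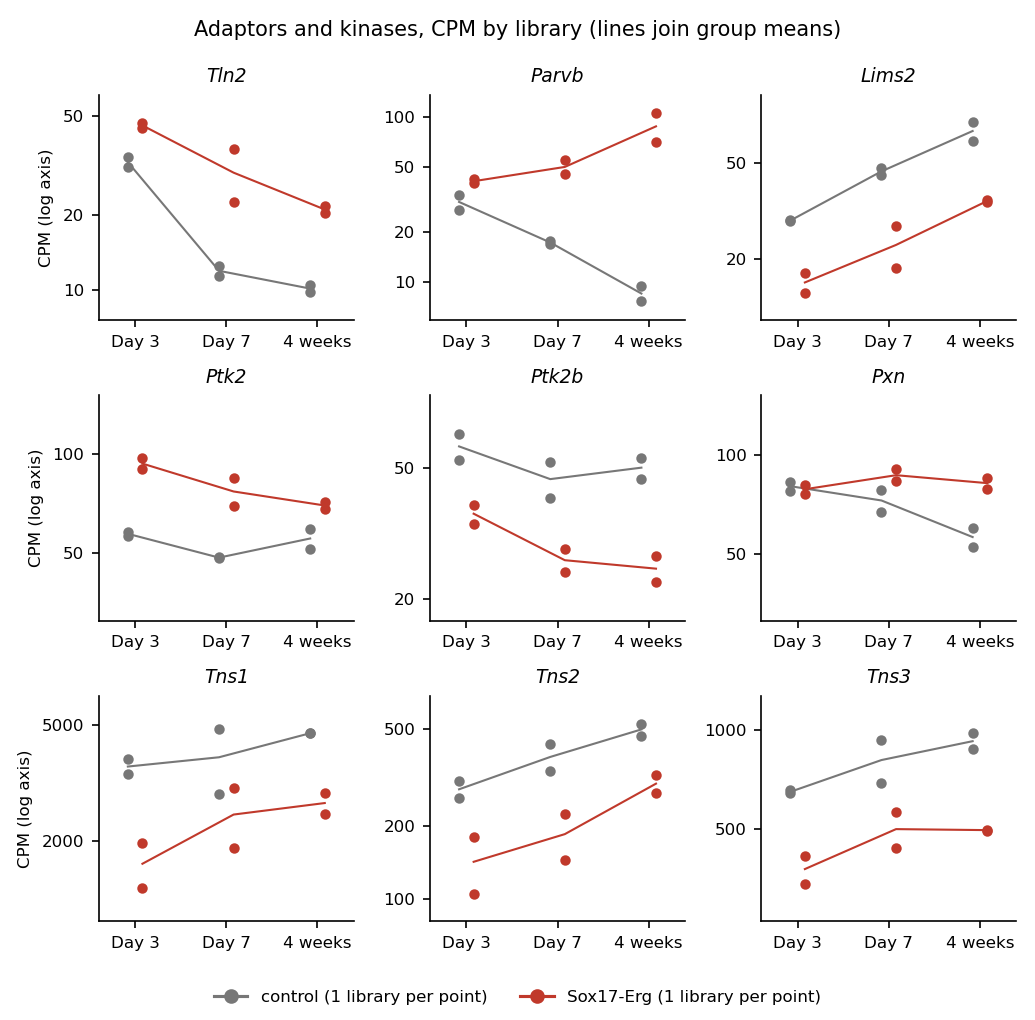
CPM on a log axis (y) at Day 3, Day 7 and 4 weeks (x) for 9 adaptors and kinases that were called at a time point, with 1 point per library (gray, control; red, *Sox17*-*Erg*) and lines joining group means. *Parvb* goes from 27.4 and 33.7 to 7.62 and 9.39 CPM in control and from 39.6 and 42 to 105 and 70.5 CPM in *Sox17*-*Erg*, while *Lims2*, *Ptk2b* and *Tns3* are lower in *Sox17*-*Erg* at each time point.

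Time in culture moved many members in the control cells too. From Day 3 to 4 weeks, 5 members rose and 10 fell in control, where 26.5% of all genes were called (13.9% higher and 12.6% lower). In *Sox17*-*Erg*, 11 rose and 10 fell, where 30.7% of all genes were called (15.1% higher and 15.6% lower). In control, *Itga5* fell by 2.70, *Itgb3* by 2.44, *Itga6* by 2.4 and *Parvb* by 1.85, and *Itga7* rose by 1.79 and *Itga1* by 1.43 (log2). In *Sox17*-*Erg*, *Itgb4* rose by 4.07 ± 0.42 (adjusted p = 0.00049) and *Itgal* fell by 3.33 ± 0.44 (adjusted p = 0.0012). A direct test of whether the *Sox17*-*Erg* effect differed between 4 weeks and Day 3 called 3 members higher and 1 lower, where 3.21% of all genes were called (2.22% higher and 0.987% lower). These were *Itgb4*, *Parvb* and *Itgb3*, given above, and *Itgal* with -2.75 ± 0.59 (adjusted p = 0.041). With the block within time points 6 were higher and none lower, where 6.89% of all genes were called (4.11% higher and 2.77% lower): *Itga11*, *Itga8* and *Pxn* were added (adjusted p = 0.029, 0.038 and 0.038), and *Itgal* was lost (adjusted p = 0.061). Without the block, 0 lower calls stood when any 1 library was left out.

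Other genes of integrin adhesion were counted from a list of 43, of which 42 were tested. Day 3 gave 4 higher and 3 lower than control, Day 7 gave 11 and 2, and 4 weeks gave 12 and 2. These were 16.7%, 31% and 33.3% of the list, where 12.3%, 17.4% and 22.9% of all tested genes were called, and the median log2 fold changes of the list were -0.01, 0.23 and 0.19. Among those with the largest changes at 4 weeks were *Fermt1*, *Tes*, *Arhgef7* and *Fyn*. *Tes*, the gene for the focal adhesion LIM protein testin, was 4.26 and 4.07 CPM in control and 15.9 and 11.0 CPM in *Sox17*-*Erg* at Day 3, and 2.63 and 3.25 against 21.8 and 20.9 CPM at 4 weeks (2.86 ± 0.22, adjusted p = 4.5e-05). *Fermt1* (kindlin-1), the epithelial kindlin, was scarce, at 0.100 and 0.203 CPM in control and 2.37 and 1.44 CPM in *Sox17*-*Erg* at 4 weeks. In every other group its mean was at most 0.3 CPM, under the filter level of 0.4 CPM. It was thus tested only through the group where it is high, and its test is not given, though the counts above include it. At Day 7 *Fermt1* had 0 counts in both control libraries. Against a floor of 3 counts per library its *Sox17*-*Erg* mean was at least 2.54-fold higher, at levels under the filter. *Arhgef7* (beta-PIX) and the *Src* family kinase gene *Fyn* were higher at 4 weeks by 1.29 ± 0.10 and 1.18 ± 0.15 (adjusted p = 6.1e-05 and 0.00063).

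Among integrin ligands, those with the largest changes at 4 weeks were higher with *Sox17*-*Erg*. Of 22 listed, 19 were tested. Day 3 gave 4 higher and 1 lower, Day 7 gave 7 and 2, and 4 weeks gave 9 and 2, or 26.3%, 47.4% and 57.9% of those tested, where 12.3%, 17.4% and 22.9% of all tested genes were called. *Tnc*, the gene for tenascin-C, a ligand of alpha9 integrin, was 146 and 103 CPM in control and 1820 and 1130 CPM in *Sox17*-*Erg* at Day 3. At 4 weeks it was 14.3 and 20.8 against 292 and 433 CPM (4.37 ± 0.47, adjusted p = 0.00028). *Postn* (periostin), which binds alphav integrins, went from 5120 and 5990 CPM at Day 3 to 60.4 and 47.5 CPM at 4 weeks in control, and from 5930 and 8200 to 1540 and 1350 CPM in *Sox17*-*Erg*, so that it was 4.74 ± 0.30 higher at 4 weeks (adjusted p = 1.9e-05). *Icam2*, an endothelial ligand of LFA-1, was 0.301 and 0.122 CPM in control and 12.7 and 14.9 CPM in *Sox17*-*Erg* at 4 weeks (5.91 ± 0.50, adjusted p = 7.8e-05). The laminin alpha chains of the endothelial basement membrane, *Lama5* and *Lama4*, were higher at 4 weeks by 3.53 ± 0.32 and 1.96 ± 0.18 (adjusted p = 0.00012 in each). *Postn* is also on the fibroblast marker list, where it was the 1 gene higher at 4 weeks and 4 others were lower.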

How the data were processed

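RNA from neonatal mouse cardiac fibroblasts infected with *Sox17*-*Erg* or control pMX retrovirus was sequenced from stranded mRNA libraries (2 per group). The deposited values are estimated counts per gene, made by the authors with bcl2fastq 2.20.0, BBDuk trimming and Salmon on mm10 (version of Salmon not given in the sources used here). The counts were rounded to whole numbers, and all of them were on named genes.

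Genes were filtered with filterByExpr (minimum count 10, minimum total 15), which left 15506. Groups were compared in edgeR 4.0.16 (R 4.3.3), with TMM scaling and 1 quasi-likelihood fit over all 12 libraries (6 residual degrees of freedom), and Benjamini-Hochberg adjustment over all genes. Log2 CPM used a prior count of 2. Standard errors (SE) are the log2 fold change divided by the square root of F. An exact permutation test over samples was also run for single genes, and its values are not reported, since genes were chosen by whether groups overlapped. On simulated data for Day 7, with 198 changed genes among 15180 tested, 97 were called with 5 false calls. DESeq2 1.42.0 was an alternative, as were other filters, thresholds, library subsets and blocks.

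Same-numbered libraries of the 2 groups deviated together across genes at Day 3, Day 7 and 4 weeks (correlations 0.186, 0.301 and 0.171). On this the numbers were taken to pair libraries within a time point. Same-numbered libraries of Day 3 and Day 7 also deviated together (0.139 to 0.219). Those of 4 weeks and an earlier day did not (-0.14 to -0.006). The pairing comes from the data, since the labels do not state what a number shares. Calls gained with a block are therefore no independent evidence, and a block leaves fewer residual degrees of freedom. Total counts of 19011635 to 41240449 per library set the counting precision. Of 35727 genes, 35493 matched GENCODE M21 (GRCm38), which gave names and positions. All members were followed. Values by library were given for members called at a time point, and of the lists of other adhesion genes and ligands the 5 called genes with the largest change at 4 weeks were named, except 1 that is not reported here; *Sox17* and *Erg*, *Gm42957* and *Gm49368* (overlapping genes), and *Msln*, *Upk3b* and fibroblast and smooth muscle markers (named after their values were seen) were added. The members and lists were chosen with earlier results of these data known.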

Additional observations from a re-analysis of the deposited data

Results flagged for a closer look

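The *Sox17*-*Erg* effect differed between 4 weeks and Day 3 for 4 members in the interaction test of edgeR's quasi-likelihood fit. For *Itgb4* the log2 difference of effects was 5.37 ± 0.59 (adjusted p = 0.0040), and for *Parvb* it was 2.95 ± 0.29 (adjusted p = 0.0025). Both stood when any 1 library was left out (adjusted p up to 0.020 and 0.018). For *Itgb3* it was 1.84 ± 0.38 (adjusted p = 0.036), lost without any of 7 libraries (the 4 of Day 3, the first control and both *Sox17*-*Erg* libraries of 4 weeks, up to 0.13). For *Itgal* it was -2.75 ± 0.59 (adjusted p = 0.041), lost without any 1 of the 12 libraries (up to 0.16), at levels of at most 2.28 CPM. Groups of 2 libraries are too small for a search for single outlying libraries.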

How the results depend on the processing

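No call of a member changed direction under any alternative. Calls that stood under every alternative were 2 of 12 at Day 3, 3 of 16 at Day 7, 9 of 16 at 4 weeks, 8 of 15 over time in control, 10 of 21 over time in *Sox17*-*Erg*, and 2 of 4 in the interaction. At an adjusted p under 0.01, members higher and lower were 3 and 1 at Day 3 and 7 and 1 at Day 7. There were 3 lower at 4 weeks, 5 lower over time in *Sox17*-*Erg* and 0 lower in the interaction. Of all 15506 genes, 304 and 117, 691 and 410, 742, 996 and 36 were, in that order. With a minimum log2 fold change of 1, members were 3 and 4 at Day 3, with 3 lower at Day 7, 3 lower at 4 weeks and 5 lower over time in *Sox17*-*Erg*. The same counts over all 15506 genes were 474 and 460, 798, 1003 and 1018. With no filter on low counts, 8 members were lower at Day 7, 9 were lower at 4 weeks, and 7 were higher and 2 lower in the interaction. Over the 25680 genes then tested the counts were 1729, 2035, 732 and 447. In DESeq2's Wald test, 10 members were lower at 4 weeks, 8 higher over time in control and 8 higher in the interaction. Of 25680 genes in that fit, 1910, 2375 and 670 were. With the 4 libraries of a time point alone, 4 members were higher and 1 lower at Day 7 (609 and 479 of 14576 genes). At 4 weeks 8 were lower (1429 of 14671 genes). The cause of these shifts was not tested.

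With the replicate block within each time point, 10 members were lower at Day 7, 9 lower at 4 weeks, and 6 higher and 0 lower in the interaction. Of all 15506 genes, 2065, 2398, 638 and 430 were. With the replicate block over all libraries, 0 members were lower in the interaction (213 of all genes). With the replicate numbers crossed at 4 weeks, chosen after seeing the data, 9 were lower at 4 weeks and 5 higher in the interaction (2120 and 493 of all genes). From Day 3 to 4 weeks, the block over all libraries gave 6 higher and 12 lower in control (2282 and 2025 of all genes). The crossed one gave 7 and 10 in control (2541 and 2388) and 12 and 11 in *Sox17*-*Erg* (2763 and 2755). The calls that a block ended were those of *Itga1* at Day 7 and of *Itgal* at Day 3 and in the interaction.

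Leaving out 1 library moved the member counts. At Day 3 they were lowest without either Day 3 control (higher), or the first control or first *Sox17*-*Erg* library (lower). Fewer of all genes were called in those fits as well. At Day 7 and at 4 weeks the member counts were lowest without the first *Sox17*-*Erg* library of that time. Calls over all genes were lowest there too. Over time they were lowest in control without its first library of Day 3 or of 4 weeks, and in *Sox17*-*Erg* without its first Day 3 library. Calls over all genes fell in these fits too. The interaction kept higher calls and no lower call whichever library was left out. Without division by length, shares at 4 weeks in control and *Sox17*-*Erg* were 58.1% and 65.0% for *Itgb1* and 41% and 31.6% for *Itgb5*. They were 44.7% and 22.9% for *Itga8*, and 4.22% and 12.6% for *Itga5*. In *Sox17*-*Erg* they were 1.51% for *Itgb8*, 0.891% for *Itgb4* and 4.66% for *Itga11*. With 2 libraries a group the tests miss changes: in the simulated Day 7 data 71 of 99 genes changed by log2 2 were called. Only 198 of 15180 tested genes were changed there, where 17.4% of all tested genes were called in the real Day 7 comparison. The share found may therefore differ in the real data.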
